A study of Mus musculus with 10 samples.

Results

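The 10 genes described here are feedback inhibitors and transcriptional targets of ERK signalling. They are the phosphatases Dusp6 and Dusp4, the inhibitors Spry1, Spry2, Spry4 and Spred1, the ETS factors Etv4 and Etv5, and the immediate-early genes Egr1 and Fos. They were chosen by symbol from 54532 mouse genes, each symbol matched 1 gene ID, and all 10 passed the low-count filter in every fit. The choice was made with earlier results of these data known, so counts of members beside shares of all genes are description, not a test. Poly-A RNA had been sequenced from 10 libraries of 4 cell types, all labelled strain 129SV. Epiblast stem cells (EpiSC), lines in the state of the epiblast after implantation, gave 5 libraries: 2 labelled haploid and p53-KO (titled haEpi1 and haEpi5), 1 diploid and p53-KO, and 2 diploid and wild type (a female and a male line, by their titles). Epiblast-like cells (EpiLC), a state reached from embryonic stem cells, gave 2 haploid libraries, 1 labelled p53-KO and 1 wild type. Embryonic stem cells (ESC) gave 1 haploid and 1 diploid library, both labelled wild type, and mouse embryonic fibroblasts (MEF), also labelled wild type and diploid, gave 1. Libraries of 1 cell type thus differ in ploidy, p53 label or sex. The series' design text speaks of triplicates, but the libraries analysed here number 1 or 2 for each cell type, ploidy and label. What each library stands for is not stated further, nothing says that they came from separate cultures, and p-values measure only the spread between these libraries. The culture media, which can hold agonists or inhibitors of this pathway, are not given in the sources used here.

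ERK is the last kinase of the RAS, RAF and MEK cascade, which FGF ligands switch on through their receptors. Active ERK induces immediate-early genes such as Fos and Egr1 and the ETS factors Etv4 and Etv5. It also induces its own inhibitors: DUSP phosphatases remove phosphate from ERK, and Sprouty and Spred proteins act between the receptor and RAF. In mouse pluripotent cells FGF4 acting through ERK promotes the step from the naive state of ESC to the primed state of the epiblast. The messages of these genes are widely used as readouts of the pathway. ERK activity itself was not measured in these libraries.

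Capicua is a repressor that ERK relieves and that binds short octamers, so the promoter windows of the members were searched for its sites. RefSeq promoter windows (GRCm38.p6, 250 bases before to 50 after the start site) were matched for 6 of the members, Dusp6, Spry1, Spry2, Spred1, Etv5 and Fos, in 7 windows. The octamers TGAATGAA, TGAATGGA, TCAATGAA and TCAATGGA, on either strand, were found in 3 of the 7 windows and in 3.84% of all 32851 windows. The 250 bases before the start site of these 3 are printed because their windows are the only ones of the 7 with a match to any motif searched. Capitals mark the match, which lies on the opposite strand in each. It ends 17 bases before the start site in Dusp6 (chr10:99262981-99263230, plus strand), 47 bases before it in Spry2 (chr14:105896820-105897069, minus strand) and 43 bases before it in Fos (chr12:85473640-85473889, plus strand).
Dusp6: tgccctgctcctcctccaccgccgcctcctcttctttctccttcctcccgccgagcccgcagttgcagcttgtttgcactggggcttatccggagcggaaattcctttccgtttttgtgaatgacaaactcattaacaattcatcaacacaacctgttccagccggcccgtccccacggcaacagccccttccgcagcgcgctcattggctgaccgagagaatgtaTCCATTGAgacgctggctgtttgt
Spry2: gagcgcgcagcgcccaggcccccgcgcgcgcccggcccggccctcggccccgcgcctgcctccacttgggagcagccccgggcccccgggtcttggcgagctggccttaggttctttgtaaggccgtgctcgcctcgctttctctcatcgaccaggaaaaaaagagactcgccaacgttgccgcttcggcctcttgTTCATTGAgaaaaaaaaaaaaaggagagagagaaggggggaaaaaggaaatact
Fos: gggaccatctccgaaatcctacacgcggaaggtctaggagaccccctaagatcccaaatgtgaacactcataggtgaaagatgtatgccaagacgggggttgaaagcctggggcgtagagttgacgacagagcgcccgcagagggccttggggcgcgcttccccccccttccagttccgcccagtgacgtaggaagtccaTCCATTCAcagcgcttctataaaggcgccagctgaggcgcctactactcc
A further match in Dusp6 lay 2 to 9 bases after the start site. The ETS site CCGGAAGT (3.89% of all windows), the AP-1 site TGACTCA (5.2%), the CRE TGACGTCA (1.79%), the EGR site GCGTGGGCG (0.612%) and the CArG box (1.63%) were found in none of the 7. No binding was measured, and a match describes letters only.

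The libraries held 15862113 to 18814003 counts each. Levels of a gene across libraries are given as CPM (counts scaled to a common library size, TMM-normalised), and the floor of 3 counts was 0.15 to 0.194 CPM. By their sums the markers went with the labels of cell type. The 9 naive markers summed to 2135 and 4186 CPM in ESC, 885 and 1590 in EpiLC and 53.2 to 127 in EpiSC. The 6 primed markers summed to 1047 to 3876 CPM in EpiSC and EpiLC and to 298 and 304 in ESC. The 2 EpiLC libraries were unlike: the median naive marker was at 132 CPM in that labelled p53-KO and 9.94 in that labelled wild type. It was at 241 and 339 CPM in haploid and diploid ESC and at 0.735 to 6.88 in EpiSC. No naive marker was called between EpiLC and ESC. The 10 fibroblast markers summed to 0.618% to 2.64% of the MEF level in EpiSC, to 1.56% in the haploid ESC library, and to 0.0251% in the diploid ESC library, where 5 of the 10 were at 0. In the EpiLC libraries they summed to 0.174% (labelled p53-KO) and 0.0423% (labelled wild type, with 2 of 10 at 0). Trp53, the gene of p53, did not separate the p53 labels: it stood at 2.17 to 61.8 CPM in the 4 libraries labelled p53-KO and at 28.5 to 375 in the 6 labelled wild type. The female EpiSC (36.9 CPM) and haploid ESC (28.5 CPM) libraries, labelled wild type, lay within the range of those labelled p53-KO. Every statement on p53 below therefore compares labels.

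Dusp6, Dusp4, Spry1 and Spred1 rose from ESC to EpiSC, Dusp6 and Spry1 also from ESC to EpiLC, and Dusp6 and Etv5 were lower in EpiSC than in EpiLC. Between EpiSC and ESC, 4 of 10 members rose (edgeR quasi-likelihood test, adjusted p under 0.05), against 6.86% of 21104 genes tested, and 0 fell, against 10.1%. With RLE in place of TMM scaling the split was 3 up (Dusp6, Spry1 and Spred1) and 1 down (Etv5). The members' median log2 fold change was 1.01, beside -0.02 for all genes tested. The libraries did not overlap for 4 members higher in EpiSC, against 17.2%, and 1 higher in ESC (Etv5), against 19%. All 10 fibroblast markers had a positive fold change in the same comparison (median 1.82, 0 called), and their sums overlapped, at 372.8 to 1592 CPM in EpiSC and 15.2 and 938.6 in ESC. The 5 trophoblast markers summed to 247 to 699 CPM in EpiSC and to 10 and 208 in ESC, with 3 of 5 higher and 0 called. The part of these markers in the members' changes was not tested. Between EpiLC and ESC, 2 rose against 0.317% of all genes and 0 fell against 0.109%, and all 10 fold changes were positive with a median of 1.59, beside -0.05 for all genes. The EpiLC and ESC libraries did not overlap for 9 members, higher in EpiLC in each, against 20.6% of all genes. Between EpiSC and EpiLC, 2 members fell against 5.88% of all genes and 0 rose against 3.77%, 9 of 10 were lower in EpiSC, and the median was -1.04 beside 0.01. Libraries were lower in all EpiSC than in both EpiLC for 5 members, against 17%. Fewer cells of a type that expresses a gene and less RNA of it per cell cannot be told apart in these bulk libraries.

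**Figure D1:**
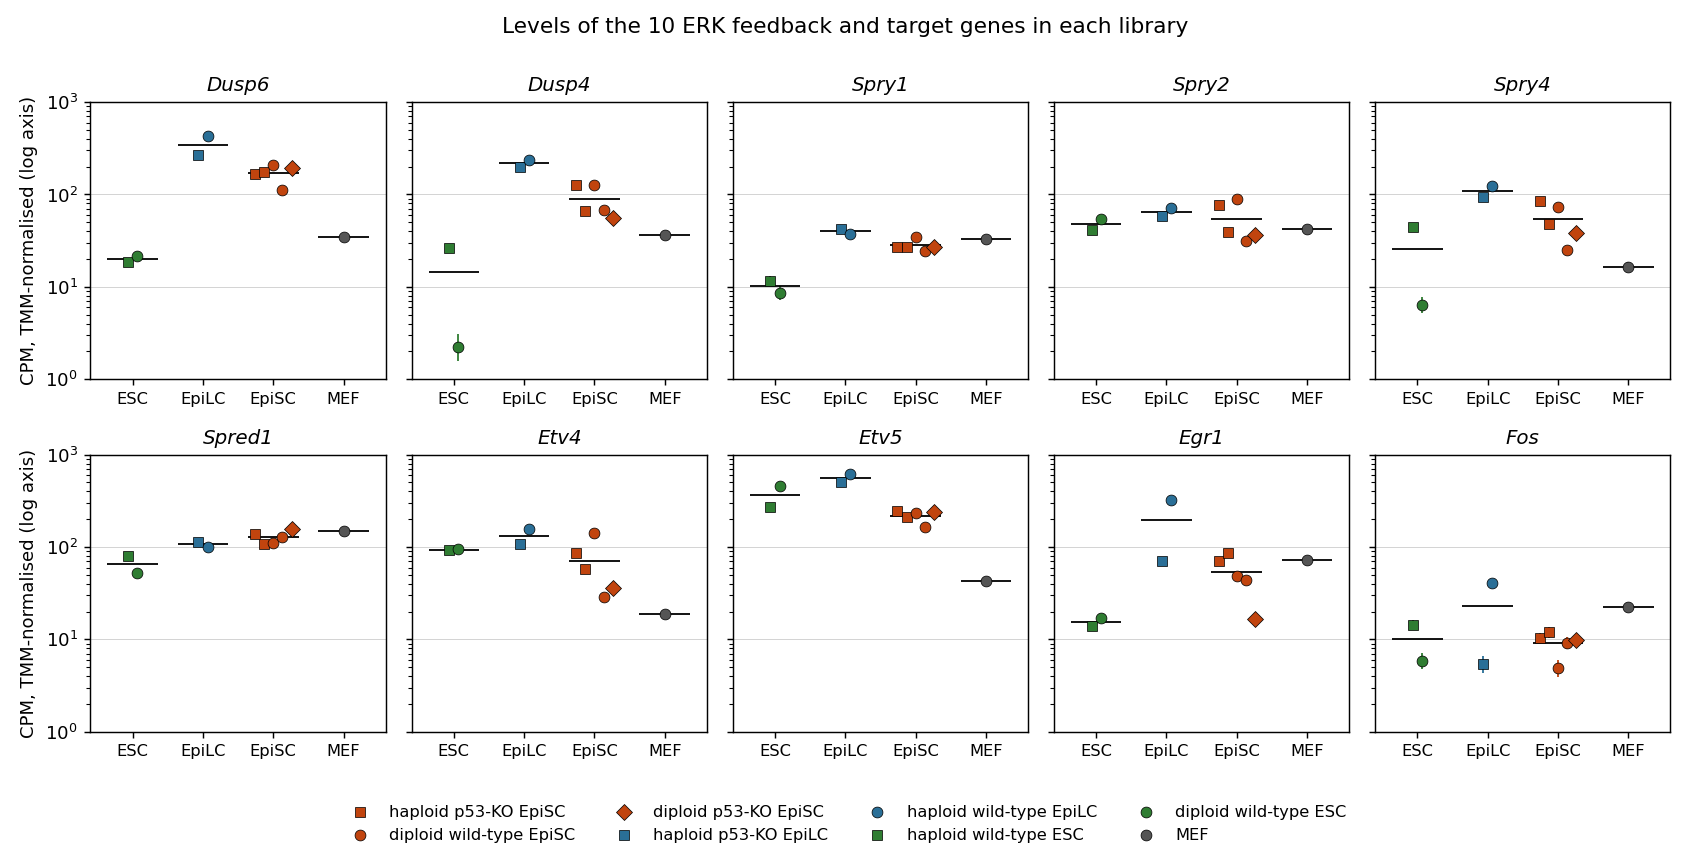
CPM of each member (log axis) in each library, by cell type. Markers give the group, vertical bars the 95% counting interval and horizontal lines the mean of the cell type. Dusp6 lies at 18.7 and 21.3 CPM in ESC and at 111 CPM or more in every EpiSC and EpiLC library, whereas Etv5 lies at 274 and 460 CPM in ESC.

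Dusp6, the cytoplasmic phosphatase specific for ERK (ENSMUSG00000019960, mm10 chromosome 10, 99263231 to 99267489), was at 18.7 CPM in haploid and 21.3 in diploid ESC. In EpiSC it was at 167 in haEpi1, 173 in haEpi5, 193 in the diploid library labelled p53-KO, 210 in the female and 111 in the male library. In EpiLC it was at 264 (labelled p53-KO) and 429 (labelled wild type), and in MEF at 34.7. The 3 pluripotent cell types did not overlap, and their order was EpiLC, EpiSC and then ESC, with MEF between EpiSC and ESC. Dusp6 was 8.39-fold higher in EpiSC than in ESC (log2 fold change 3.07 ± 0.34 SE, adjusted p = 0.000637) and 17.3-fold higher in EpiLC than in ESC (4.11 ± 0.38, adjusted p = 0.00407). Without the diploid ESC library the EpiLC change was 4.19 with adjusted p = 0.0514, where the alternatives ran from 9.3e-21 to 0.236. It was lower in EpiSC than in EpiLC (-1.05 ± 0.27, adjusted p = 0.0382) and higher in EpiSC than in MEF (2.27 ± 0.44, adjusted p = 0.00883). The EpiSC-EpiLC call was kept in 8 of 17 alternatives, with changes from -1.4 to -0.63 and adjusted p from 0.0103 to 0.396. It was lost without any 1 of the 5 EpiSC or the 2 EpiLC libraries, with covariates and with wild-type labels only, and without the EpiLC library labelled wild type the change was -0.63. MEF and ESC were not compared by a test.

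Dusp4, a nuclear phosphatase of ERK and related kinases (ENSMUSG00000031530, chromosome 8, 34807297 to 34819894), had a wider spread. It stood at 26.6 CPM in haploid and 2.24 in diploid ESC, the largest ratio within a cell type of any member (11.9-fold). EpiSC held 128 (haEpi1), 66.6 (haEpi5), 55.5 (diploid, labelled p53-KO), 126 (female) and 68.4 CPM (male), EpiLC 199 and 238 (labelled p53-KO and wild type), and MEF 36.2. Every EpiSC and EpiLC library was above both ESC libraries. The change from ESC to EpiSC was 2.63 ± 0.78 (adjusted p = 0.0454) and lay close to the threshold. It was kept in 6 of 17 alternatives and lost without any 1 of the 9 libraries other than haploid ESC, with RLE scaling and with wild-type labels only, with values from 1.72 without the diploid ESC library to 5.25 without the haploid one, and adjusted p from 0.000618 to 0.272. The EpiLC value against ESC was 3.95 ± 0.9 (edgeR adjusted p = 0.102). It passed without a low-count filter (adjusted p = 0.000218), with DESeq2 (0.000306) and with limma on log2(FPKM + 1) (0.0345). With RLE scaling, covariates or wild-type labels only it did not pass. Without the haploid ESC library the value was 6.57.

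The Sprouty genes encode inhibitors of receptor tyrosine kinase signalling. The 3 among the members were higher in both EpiLC than in both ESC libraries, where Spry1 passed the test and Spry2 and Spry4 did not. Spry3, which is not a member, was near the floor and overlapped, at 0.378 and 1.48 CPM in EpiLC and 0 and 0.499 in ESC. Spry1 (ENSMUSG00000037211, chromosome 3, 37639947 to 37644598) was at 11.6 and 8.57 CPM in haploid and diploid ESC. It was at 27.1 in haEpi1, 27.2 in haEpi5, 27 in the diploid library labelled p53-KO, 34.7 in the female and 24.4 in the male EpiSC library. EpiLC held 42 (labelled p53-KO) and 37.6 (labelled wild type), and MEF 32.7. The pluripotent cell types did not overlap, in the order EpiLC, EpiSC and ESC. Spry1 rose from ESC to EpiSC (1.46 ± 0.26, adjusted p = 0.00522), kept in 16 of 17 alternatives, and from ESC to EpiLC (1.98 ± 0.29, adjusted p = 0.0317), kept in 9 of 17 with adjusted p from 2.41e-07 to 0.313. The EpiLC call was lost without haEpi1, haEpi5, female EpiSC, diploid p53-KO EpiSC, diploid ESC or wild-type EpiLC, each left out alone, and with p53 label and ploidy as covariates or wild-type labels only. The EpiSC libraries bear on that p-value through the spread, of which all cell types shared 1 estimate. EpiSC and EpiLC (-0.52 ± 0.23, adjusted p = 0.171) and EpiSC and MEF (-0.24 ± 0.3, adjusted p = 0.646) were not separated by the test. The overlapping gene Gm42922 on the opposite strand had at most 5 counts, 0.926% of those of Spry1.

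Spry2 (ENSMUSG00000022114, chromosome 14, 105891947 to 105896819) was at 41.3 and 54.1 CPM in haploid and diploid ESC, 58.4 and 71.5 in EpiLC (labelled p53-KO and wild type) and 41.8 in MEF. The 5 EpiSC libraries straddled those levels at 76.8 (haEpi1), 39.6 (haEpi5), 36.5 (diploid, labelled p53-KO), 89.9 (female) and 31.4 (male). The change from ESC to EpiSC was 0.17 ± 0.42 (adjusted p = 0.82), within the spread of the libraries. Spry4 (ENSMUSG00000024427, chromosome 18, 38586268 to 38601268) resembled Dusp4 more: it was at 44.6 CPM in haploid and 6.4 in diploid ESC. EpiSC held 84.7 (haEpi1), 47.9 (haEpi5), 38.6 (diploid, labelled p53-KO), 73.2 (female) and 24.8 (male), EpiLC 93.2 and 124 (labelled p53-KO and wild type), and MEF 16.3. Both EpiLC libraries were above every other library, but the change from ESC was 2.11 ± 0.78 with adjusted p = 0.273. Against EpiSC, ESC overlapped (1.08 ± 0.67, adjusted p = 0.306), and without the haploid ESC library the change was 3.01 with adjusted p = 0.0251, the lowest of alternatives that reached 0.853. Gm27804 and Gm27369 overlap Spry4 on the opposite strand and had at most 7 and 2 counts.

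Spred1, a membrane inhibitor of RAS and RAF that recruits neurofibromin (ENSMUSG00000027351, chromosome 2, 117121374 to 117182279), had its lowest levels in ESC too. It was at 80.4 and 51.8 CPM in haploid and diploid ESC and at 113 and 99.9 in EpiLC (labelled p53-KO and wild type). It was at 138 in haEpi1, 107 in haEpi5, 157 in the diploid library labelled p53-KO, 111 in the female and 129 in the male EpiSC library, and at 148 in MEF. EpiSC were above ESC without overlap, 1.92-fold (0.94 ± 0.24, adjusted p = 0.0245). The call was kept in 13 of 17 alternatives (adjusted p from 0.0108 to 0.234) and lost without haEpi1 (0.92, adjusted p = 0.0526) or without the diploid ESC library (0.65, adjusted p = 0.203). It was also lost with p53 label and ploidy as covariates (0.85, adjusted p = 0.125) and with libraries labelled wild type only (0.87, adjusted p = 0.234).

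The ETS factors Etv4 and Etv5, which carry FGF responses to transcription, were not called in either comparison with ESC. Like Dusp6, Etv5 was called lower in EpiSC than in EpiLC and higher in EpiSC than in MEF. Etv5 (ENSMUSG00000013089, chromosome 16, 22381309 to 22439719) was at 274 CPM in haploid and 460 in diploid ESC. It was at 500 in the EpiLC library labelled p53-KO and 616 in that labelled wild type. EpiSC lay below both other pluripotent types without overlap, at 244 (haEpi1), 211 (haEpi5), 239 (diploid, labelled p53-KO), 234 (female) and 164 (male), and MEF was lowest at 43.4. Etv5 was 2.6-fold lower in EpiSC than in EpiLC (-1.38 ± 0.25, adjusted p = 0.0108), a call kept in 15 of 17 alternatives, with adjusted p = 0.0607 without the EpiLC library labelled wild type. Against ESC the value was -0.78 ± 0.25 with adjusted p = 0.0616, and it passed in 4 of 17 alternatives (RLE scaling, DESeq2, and without the haploid ESC or the MEF library), with adjusted p from 0.023 to 0.502. Against MEF it was higher in EpiSC (2.31 ± 0.41, adjusted p = 0.00636).

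Etv4 (ENSMUSG00000017724, chromosome 11, 101769742 to 101785371) was at nearly the same level in haploid and diploid ESC, 91.7 and 94.2 CPM, and at 108 and 156 in EpiLC (labelled p53-KO and wild type). Among EpiSC it ranged 4.94-fold, with 86.6 in haEpi1, 58 in haEpi5, 35.9 in the diploid library labelled p53-KO, 143 in the female and 28.9 in the male library, and it was at 18.6 in MEF. The female library was above both ESC libraries and the other 4 were below them. The change from ESC to EpiSC was -0.43 ± 0.52 (adjusted p = 0.62). Dusp6 and Etv5 were the only members called between EpiSC and MEF, against 5.93% of all genes higher and 8.79% lower in EpiSC. A total of 5 members were higher in every EpiSC library than in MEF, against 30.7%. Fos was lower in every EpiSC library (4.92 to 11.9 CPM against 22.4), a direction for which the share of all genes is not given. MEF is 1 library, so its lack of overlap shows little.

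The immediate-early genes differed widely between libraries of a cell type, Egr1 by 5.17-fold among EpiSC and Fos by 7.59-fold between the EpiLC. Egr1, a zinc-finger factor induced by growth factors (ENSMUSG00000038418, chromosome 18, 34859823 to 34864984), was at 13.9 and 16.9 CPM in haploid and diploid ESC. It was at 70.9 (haEpi1), 86.2 (haEpi5), 48.9 (female) and 43.6 (male) in EpiSC, but at 16.7 in the diploid EpiSC library labelled p53-KO, which lay among the ESC. EpiLC held 71.1 (labelled p53-KO) and 325 (labelled wild type), and MEF 72.8. No comparison of cell types passed the edgeR test. From ESC to EpiSC the change was 1.77 ± 0.69 (adjusted p = 0.111), and it passed in 2 of 17 alternatives, without a low-count filter (0.0088) and with DESeq2 (0.0385), where the highest adjusted p was 0.307. The largest change was 3.69 ± 0.83 from ESC to EpiLC (adjusted p = 0.0984), where DESeq2 gave adjusted p = 0.000193 and the alternatives ran up to 0.484. Without the EpiLC library labelled p53-KO it passed (4.38, adjusted p = 0.0374), and EpiSC then also lay below EpiLC (-2.61, adjusted p = 0.0477), where both EpiLC libraries had given -1.92 ± 0.58 (adjusted p = 0.0654; 0.00156 to 0.767 over the alternatives).

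Fos, which pairs with JUN proteins to form AP-1 (ENSMUSG00000021250, chromosome 12, 85473890 to 85477273), lay between 4.92 and 40.6 CPM. It was at 14.4 and 5.84 CPM in haploid and diploid ESC, and at 10.2 (haEpi1), 11.9 (haEpi5), 9.8 (diploid, labelled p53-KO), 4.92 (female) and 9.16 (male) in EpiSC. The EpiLC library labelled wild type held the highest level, 40.6, that labelled p53-KO held 5.35, and MEF 22.4. Its change between EpiLC and ESC turned from 1.2 with both EpiLC libraries to -0.94 without the one labelled wild type, with no call in either case (adjusted p = 0.519 and 0.785). Between EpiSC and ESC it was -0.15 ± 0.66 (adjusted p = 0.905).

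**Figure D2:**
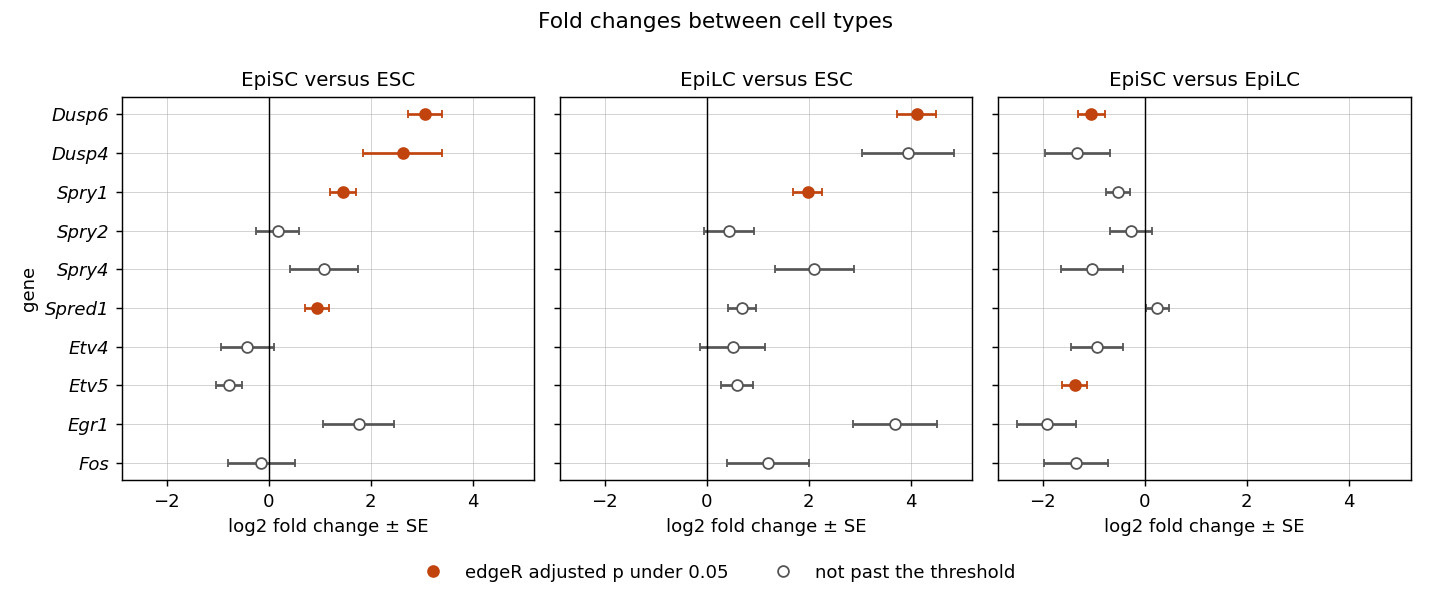
Log2 fold change ± SE of each member in 3 comparisons of cell types (edgeR, 5 EpiSC, 2 EpiLC and 2 ESC libraries). Filled points passed adjusted p under 0.05: Dusp6, Dusp4, Spry1 and Spred1 in EpiSC against ESC, Dusp6 and Spry1 in EpiLC against ESC, and Dusp6 and Etv5 in EpiSC against EpiLC.

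Other genes of the pathway were counted in the same fit, where 6.86% of all genes rose and 10.1% fell from ESC to EpiSC. Of 21 genes of the cascade core, which carry the signal from receptor to ERK, 1 rose and 3 fell, near those shares. Mapk3, which encodes ERK1, rose by 1.22 ± 0.32 (adjusted p = 0.0278), the adaptor Gab1 fell by 2.59 ± 0.41 (adjusted p = 0.00315) and the scaffold Ksr1 fell by 1.63 ± 0.32 (adjusted p = 0.00807). Of 13 other feedback genes, a list that holds Dusp8, Dusp10 and Dusp16 and is not limited to phosphatases of ERK, 3 rose and 0 fell. Those that rose were Spred3 (2.31 ± 0.53), the FGF receptor antagonist Il17rd (1.41 ± 0.31) and the phosphatase Dusp7 (0.86 ± 0.23). Of 19 other immediate-early genes 2 rose, Myc (2.46 ± 0.53) and Atf3 (1.96 ± 0.6), and 0 fell; RLE scaling left 1 and DESeq2 gave 3. Of 12 other ETS factors and Capicua partners 2 rose, Ets1 (2.88 ± 0.68) and Etv1 (1.35 ± 0.37), and 2 fell, among them the ETS repressor Erf (-1.26 ± 0.23). Of 17 ligands and receptors 6 rose and 1 fell. Fgf5, itself a marker of the primed state, rose from 0.0621 and 0.15 CPM in ESC, which are at or under the floor, to 28.1 to 65.7 CPM in EpiSC, and Kit, the receptor of stem cell factor, fell by 4.29 ± 0.57 (adjusted p = 0.00148). Of 8 heat shock and stress genes, a list of handling effects, Hspb1 alone was called, and it fell by 2.22 ± 0.59. The medians were -0.05 for the core, 0.86 for the other feedback genes, 1.15 for the other immediate-early genes, -0.17 for the ETS list and 0.87 for ligands and receptors, beside -0.02 for all genes.

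From ESC to EpiLC 1 gene of these 6 lists passed, Fgf5, which reached 39.2 and 111 CPM. The unadjusted p was under 0.05 for 6 of the 21 core genes, 3 of the 13 feedback genes, 6 of the 19 immediate-early genes, 7 of the 12 ETS genes, 7 of the 17 ligands and receptors and 0 of the 8 stress genes, beside 3035 of all 21104 genes. DESeq2 called 1, 2, 2, 2, 5 and 0 of them, beside 5.4% of the genes it gave an adjusted p. Between EpiSC and EpiLC, where 3.77% of all genes rose and 5.88% fell, 2 of the 21 core genes fell, among them Gab1 (-2.99 ± 0.41), and 2 of the 12 ETS genes rose, Elk3 (3.27 ± 0.67) and Ets1 (3.06 ± 0.69). Of the 17 ligands and receptors 5 rose, among them Pdgfrb (2.57 ± 0.41), Met (1.94 ± 0.47) and Erbb2 (1.75 ± 0.27). The summed fibroblast markers were also higher in each EpiSC library than in the EpiLC libraries (372.8 CPM or more against 105 CPM or less), and Pdgfrb is on that list too; the part of this difference in the result was not tested. Against MEF the phosphatases Dusp9 (4.26 ± 1.01) and Dusp16 (1.63 ± 0.31) were higher in EpiSC, and Dusp7 was lower (-1.14 ± 0.26). Fgf4, the main FGF ligand of pluripotent cells, had 19.1 to 99.1 CPM in EpiSC and 0 counts in MEF.

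Within ESC and within EpiLC the libraries differed in ploidy or in p53 label, with 1 library a side and so no test. In haploid against diploid ESC, 3 of 10 members were at least 2-fold higher, against 20.3% of all genes, and 0 at least 2-fold lower, against 10.5%. The log2 ratios were 3.5 for Dusp4 (532 against 36 counts, 95% counting interval 3.08 to 4.1), 2.78 for Spry4 (2.51 to 3.11) and 1.29 for Fos (0.96 to 1.66). Dusp6 (-0.19), Etv4 (-0.04) and Egr1 (-0.28) had small ratios, and Etv5 was lower in the haploid library (-0.75, interval -0.8 to -0.7). These intervals cover counting error only. The same libraries differed in the summed naive markers, 2135 CPM in the haploid and 4186 in the diploid one, and in the fibroblast markers, 938.6 and 15.2 CPM. The part of these differences in the ratios was not tested.

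In the EpiLC library labelled p53-KO against that labelled wild type, 0 members were at least 2-fold higher, against 18.9% of all genes, and 2 at least 2-fold lower, against 9.74%. These were Fos (-2.9, 95% counting interval -3.27 to -2.59) and Egr1 (-2.19, -2.29 to -2.1). Dusp6 was also lower (-0.7), while Dusp4 (-0.26), Spry2 (-0.29) and Etv5 (-0.3) differed less, and Spry1 (0.16) and Spred1 (0.18) were slightly higher. Fosb, another AP-1 gene, was at 0.818 CPM in the library labelled p53-KO and 50.8 in that labelled wild type. Junb went the other way, at 71.2 and 29.6 CPM. The same 2 libraries differed in summed primed markers, 1071 and 3876 CPM, and in summed naive markers, 1590 and 885 CPM. The median naive marker was at 132 and 9.94 CPM. The part of these markers in the ratios was not tested. The 8 heat shock and stress genes summed to 2354 and 3987 CPM, the second being the highest sum of the 10 libraries, and most of it was Hspa8 (1743 and 3549 CPM). The part of this list in the lower Fos, Egr1 and Fosb was not tested either.

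**Figure D3:**
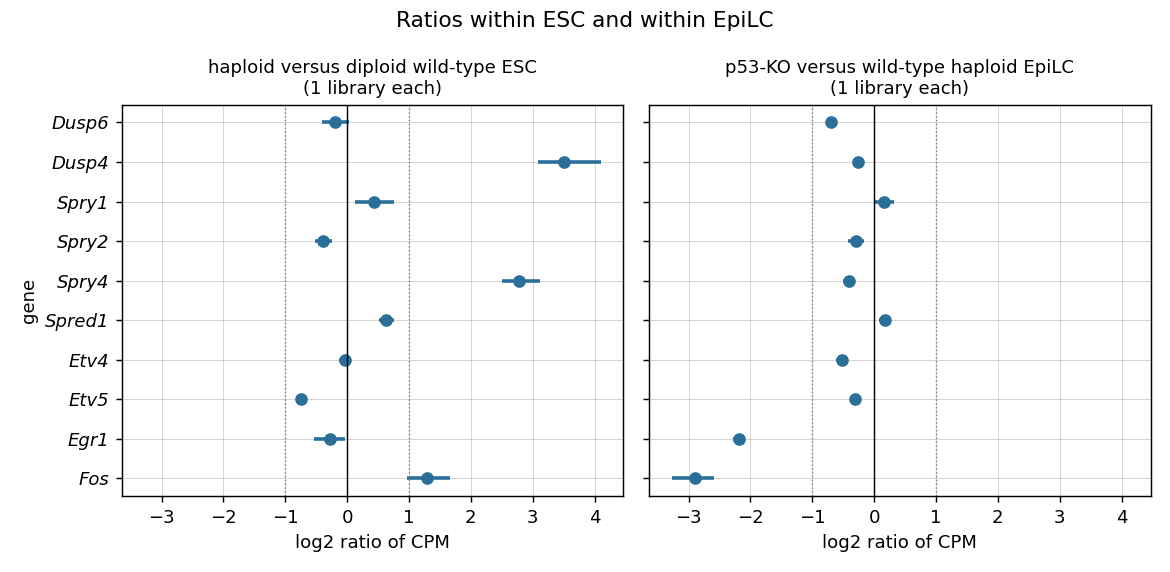
Log2 ratio of CPM (prior count 2) for each member in haploid against diploid ESC and in EpiLC labelled p53-KO against wild type, 1 library each, with 95% counting intervals as bars and dotted lines at 2-fold. Dusp4 (3.5) and Spry4 (2.78) stand apart in ESC, and Fos (-2.9) and Egr1 (-2.19) in EpiLC.

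Among the 5 EpiSC libraries, no member passed the edgeR test in any of the 3 comparisons of ploidy and p53 label, where 0% of 18153 genes passed. For haploid libraries labelled p53-KO against diploid wild type, 1 member had an unadjusted p under 0.05, Egr1 (0.77 ± 0.25, edgeR adjusted p = 0.977), among 641 genes, and DESeq2 called 0 members. For the diploid library labelled p53-KO against diploid wild type, Egr1 was again the 1 member with an unadjusted p under 0.05 (-1.48 ± 0.33, edgeR adjusted p = 0.908), among 700 genes, and DESeq2 called 0. For haploid against diploid among those labelled p53-KO, it was Egr1 once more (2.25 ± 0.34, edgeR adjusted p = 0.381), among 1007 genes. DESeq2 called it (adjusted p = 5.72e-05), the fit without a low-count filter also did (0.0004), and so did the fits without the female (0.0314) or the male library (0.0177), in alternatives that reached 1. In this comparison 8 of 10 fibroblast markers were also higher in the haploid libraries (median 2.28, 6 with unadjusted p under 0.05), although their sums were 809.7 and 1592 CPM against 1138 in the diploid library. All 8 naive markers tested were higher too (median 1.33), with sums of 127 and 100.2 against 53.2 CPM over the whole list, and the part of these markers in the Egr1 change was not tested. In the first comparison all 10 fibroblast markers were higher (median 1.14), and in the second 8 of 10 were lower (median -1.02). Their sums in the second went the other way, at 1138 CPM against 721 and 372.8 in the female and male libraries. Their part in those Egr1 changes was not tested either. These comparisons share libraries. The second and the third both rest on the same 1 diploid library labelled p53-KO, assumed to vary like the others. Egr1 was at 16.7 CPM in that library, so its changes in these comparisons are not separate observations. The 19 other immediate-early genes split into 18 higher and 1 lower in the first comparison (median 0.41) and 4 and 15 in the second (-0.21). In the third the split was 16 and 3 (0.57, beside 0.05 for all genes), and edgeR called 0 of them in each. The immediate-early gene Junb had 107 and 156 CPM in haEpi1 and haEpi5 and 43.7 in that diploid library (1.61 ± 0.37, adjusted p = 0.606), whereas Ier3 was highest there, at 161 CPM.

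The male EpiSC library was the lowest of the 5 for 6 members, Dusp6, Spry1, Spry2, Spry4, Etv4 and Etv5, where it was the lowest for 21.7% of all genes tested. This count was made after the values were seen. The female library was the highest for 4 members (Dusp6, Spry1, Spry2 and Etv4), against 19.6%. The female level was 4.94-fold the male level for Etv4, 2.95-fold for Spry4, 2.86-fold for Spry2, 1.89-fold for Dusp6 and 1.84-fold for Dusp4. For Spred1 and Fos the order was the opposite, with ratios of 0.862 and 0.537. The 2 haploid libraries differed as well, with haEpi1 above haEpi5 1.94-fold for Spry2, 1.92-fold for Dusp4 and 1.77-fold for Spry4 but equal for Spry1 (0.997). Each line is 1 library, so line and library cannot be told apart.

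**Figure D4:**
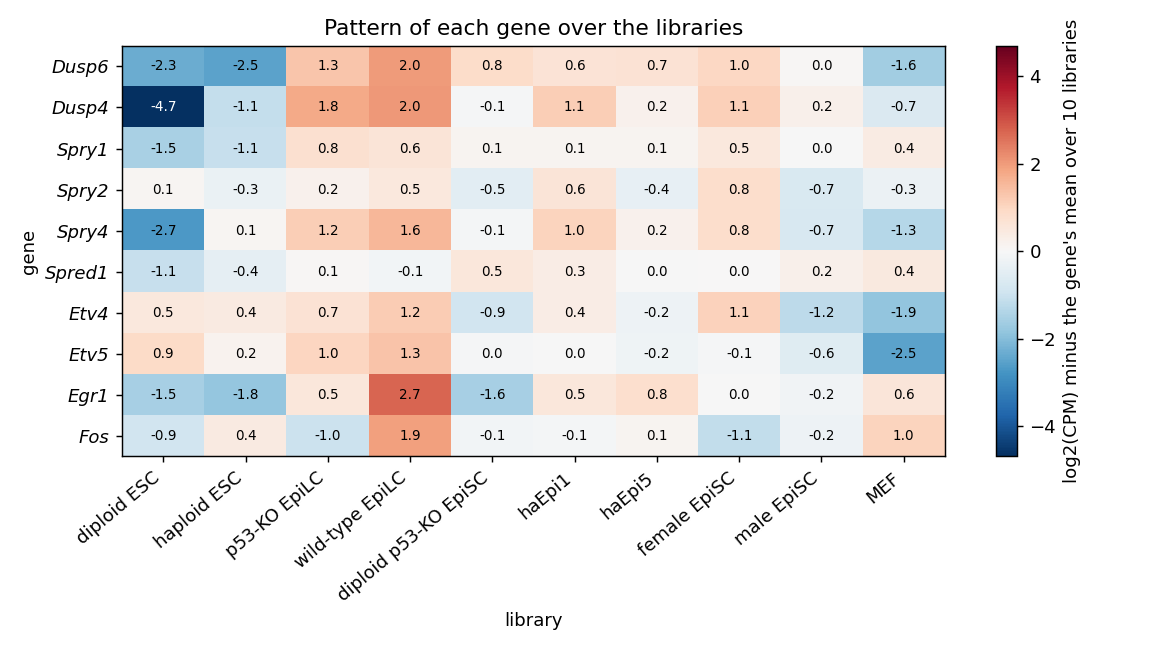
Log2 CPM of each member in each library minus the member's mean over the 10 libraries (colour and printed number). Dusp4 lies furthest below its mean in diploid ESC (-4.7) and Egr1 furthest above in the EpiLC library labelled wild type (2.7). The male EpiSC column is below 0 for 7 members, from -1.23 for Etv4 to -0.02 for Spry1. The columns of diploid ESC and of the diploid EpiSC library labelled p53-KO are also below 0 for 7 members each.

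Whether the effect of a label differed between cell types was tested over the 9 pluripotent libraries, and no member passed in edgeR, where 0% of 20583 genes passed. The difference of the p53-label effect in haploid EpiLC from that in diploid EpiSC had an unadjusted p under 0.05 for 1 member (1578 of all genes), Fos, at -3.39 ± 0.84 (edgeR adjusted p = 0.367). DESeq2 called it (adjusted p = 0.0278), and so did the fit without a low-count filter (0.0238), in alternatives up to 0.358. The difference of the ploidy effect in ESC from that in EpiSC labelled p53-KO had such a p for 2 members (1434 of all genes), Egr1 at -2.51 ± 0.48 (edgeR adjusted p = 0.281) and Dusp4 at 2.76 ± 0.8 (edgeR adjusted p = 0.511). DESeq2 called Egr1 (adjusted p = 0.00865) and not Dusp4 (0.0578), and without the filter both passed (0.00501 and 0.0017), in alternatives up to 0.288 and 0.519. All these contrasts rest on groups of 1 library.

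Levels were set between genes only on the deposited FPKM, which divide by gene length. Etv5 ranked the first or the second of the 10 members in all 9 pluripotent libraries, with 51.4 ± 7.81 FPKM in EpiSC (SD, n = 5), but 7 in MEF. Dusp6 ranked 1 or 2 in all EpiSC and EpiLC libraries (52.7 ± 11.6 FPKM in EpiSC), 8 in haploid and 5 in diploid ESC, and 6 in MEF. Dusp4 ranked 6 in haploid and 10 in diploid ESC and was 3 or 4 in the EpiSC and EpiLC libraries. Spred1 ranked 1 in MEF and Fos 10 in 5 of the 10 libraries. The feedback phosphatase Dusp6 and the factor Etv5 were thus at like FPKM in EpiSC, whereas in ESC Etv5 (90.3 ± 32, n = 2) exceeded Dusp6 (6.45 ± 0.57, n = 2).

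Likeness of pattern was described by Pearson's r of log2 CPM over the 10 libraries, which share cell types and lines, so r describes these libraries only. Of the 45 pairs of members 37 had a positive r, with a median of 0.36, and within the 5 EpiSC libraries 29 of 45. These counts have no value over other gene pairs beside them. The highest were Dusp4 with Spry4 (0.912), Dusp4 with Spry1 (0.887), Dusp6 with Dusp4 (0.84) and Etv4 with Etv5 (0.827), and the lowest was Spred1 with Etv5 (-0.532). Within EpiSC, Dusp4 with Spry4 was at 0.824, but Dusp6 with Dusp4 at 0.281 and Spry1 with Spred1 at -0.437, where all 10 libraries gave 0.756. Among 11349 genes with a mean of at least 5 CPM, Dusp6 was most like Rwdd4a (0.977), Kat5 (0.977) and Lef1 (0.966). Etv5 was most like Mpp6 (0.989), Ctnnal1 (0.982) and Chd1l (0.981), and Dusp4 was most like Zfp623 (0.932), Maoa (0.93) and Stag2 (0.93). For Spry1 the nearest was Cnr1 (0.954), for Spry4 Jade2 (0.939), for Spred1 Gpr173 (0.957) and for Etv4 Twistnb (0.913). The value was lower for Spry2, with Hnrnpm (0.867), and Egr1 was most like Map2k7 (0.947).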

How the data were processed

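Counts per gene were deposited by the authors as whole numbers, made with HISAT2 2.0.5 and featureCounts 1.5.0-p3 on mm10, per the submitters' processing notes. FPKM were deposited by the authors too and equalled counts divided by gene length and 1 constant per library (largest relative deviation 1.66e-08 for values above 20 counts). No source used here gives the strand setting of the counting. Groups came from the labels. In R 4.3.3, edgeR 4.0.16 (filterByExpr, TMM, quasi-likelihood F test, Benjamini-Hochberg over all genes tested, threshold 0.05) compared cell types in 1 fit of 10 libraries, EpiSC groups in the 5 EpiSC libraries, and label effects between cell types in the 9 pluripotent libraries. All groups of a fit shared 1 estimate of the spread, and a group with 1 library took it from the rest. The p-values of EpiLC against ESC thus rest on the spread of EpiSC too. Each SE came from the fold change and its F statistic. Libraries set 1 against 1 were given as log2 CPM ratios (prior count 2) without a test. Intervals are 95% Poisson intervals and cover counting error only. Alternatives were RLE factors, no filter, DESeq2 1.42.0, limma 3.58.1 on log2(FPKM + 1) and log2(FPKM + 0.1) for genes of at least 1 FPKM, each library left out, p53 label and ploidy as covariates, and libraries labelled wild type only. Named beside the members were, per pathway list and comparison, up to 3 called genes with the largest change or the 2 with the smallest p, a few of which are printed, and the 3 genes most like each member. Members and lists were chosen with earlier results of these data known. The values of a few single genes that the naming rule chose are not reported here.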

Additional observations from a re-analysis of the deposited data

Results flagged for a closer look

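Spry1 in the female EpiSC library (34.7 CPM) stood further from the other 4 EpiSC libraries, of which the nearest was at 27.2 CPM, than Dixon's 95% criterion allows for 5 values (0.731 against 0.71). Chance alone gives such a gap in about 1 of 20 groups, and 10 members were examined. Groups of fewer than 4 libraries were not examined.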

How the results depend on the processing

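No called change of a member turned its direction under any alternative run. From ESC to EpiSC, 4 members passed in the fit reported, 0 with libraries labelled wild type only, and 2 to 6 when 1 library was left out (2 without haEpi1 or the diploid ESC library, 6 without the haploid ESC library). From ESC to EpiLC the count of 2 became 5 without a low-count filter, 4 with DESeq2, 1 with p53 label and ploidy as covariates, 0 with libraries labelled wild type only, and 0 to 3 with 1 library left out (0 without the diploid ESC library). Between EpiSC and EpiLC it became 1 with covariates, 0 with wild-type labels only, and 0 to 3 with 1 library left out (0 without the wild-type EpiLC library), and between EpiSC and MEF it became 0 with wild-type labels only. That last setting leaves 6 libraries, and edgeR then called 70 genes in all between EpiSC and ESC. For haploid against diploid EpiSC labelled p53-KO the count of 0 became 1 without a filter and with DESeq2, and 0 to 1 with 1 library left out. For the p53-label difference it became 1 without a filter and 1 with DESeq2, and for the ploidy difference 2 and 1. DESeq2 raised the count from ESC to EpiSC to 5 up and 1 down, and that between EpiSC and EpiLC to 3 down. Without a low-count filter Egr1 was added in both of these comparisons, and Etv4 between EpiSC and MEF. The cause of these shifts was not tested. The median log2 fold change of all genes between EpiSC and MEF was 0.11 with TMM, 0.04 with RLE and 0.0037 with DESeq2. Over all genes, DESeq2 called 960 between EpiLC and ESC against 90 with edgeR, 3616 against 2036 between EpiSC and EpiLC, and 268, 334 and 244 in the last 3 comparisons, where edgeR called 0. No paired analysis was possible because the labels give the groups compared no shared replicate numbers. With 1 or 2 libraries a group in most comparisons, a change that missed the threshold is not shown to be absent.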
